A study of Mus musculus with 16 samples.

Results

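Splenic CD8+ sorted cells of mice without Aire were compared with those of Aire+/+ mice, all C57BL/6 and all carrying MC38 colon tumors. Spleens of several mice per condition were taken on day 19 after tumor implantation, pooled, sorted for CD8 and captured as 1 single-cell library per condition. The groups were Aire+/+ with isotype control antibody, Aire-/- with isotype control, Aire+/+ with anti-PD1 and Aire-/- with anti-PD1. The Aire-/- library was set against the Aire+/+ library within each treatment, which gave 2 pairs sharing no library, and a difference was carried forward when both pairs moved in the same direction. Of 10856 barcodes in the 4 libraries (of 16 in the series), 10516 were kept, with no search for doublets, because they held at least 1 UMI of Cd8a or Cd8b1, at least 1 UMI of Cd3e, Cd3d or Cd3g, at most 1 UMI of Cd79a and no Siglech. UMIs were summed per gene over the kept cells of a library and scaled to the library total (CPM).

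Aire is a nuclear regulator used by medullary thymic epithelial cells to transcribe genes that otherwise belong to peripheral tissues. Central tolerance draws on these products: a T cell still maturing in the thymus is lost, or takes a regulatory fate, when it binds self strongly. CD8 T cells are not the cells that use Aire, so a difference in the spleen concerns cells whose repertoire was selected in a thymus with or without it. Most splenic CD8 T cells are naive: they recirculate through lymphoid organs guided by the chemokine receptor Ccr7. After antigen encounter they divide, and their descendants become effector cells loaded with granzymes or memory cells that persist. In mice a share of memory-type CD8 cells also arises without known antigen, through cytokines such as interleukin 15. PD1, encoded by Pdcd1, is an inhibitory receptor gained on activation, and anti-PD1 blocks it.

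Aire itself was read first. It had 0 UMIs in each of the 4 libraries, so the genotype could not be checked from these cells in either direction. The sex-linked genes put the libraries on the female side: Xist, the RNA of the inactive X chromosome, was at 233, 272, 257 and 215 CPM in Aire+/+ isotype, Aire-/- isotype, Aire+/+ anti-PD1 and Aire-/- anti-PD1, an order used for every list of 4 values here. The Y-chromosome genes Eif2s3y, Kdm5d and Uty had no UMI in any library, and Ddx3y had 1 UMI in Aire+/+ isotype and 0 in the others.

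The kept cells numbered 2799, 2295, 2871 and 2551, which was 96.5, 97.5, 96.8 and 96.9% of the barcodes. Their median depths were 6381, 6276, 6294 and 5781 UMIs, and their median gene numbers 1884, 1852, 1845 and 1787. The Aire-/- anti-PD1 library was thus the shallowest per cell. Mitochondrial transcripts made up 3.50, 4.36, 4.70 and 3.53% of UMIs, higher in Aire-/- under isotype and lower in Aire-/- under anti-PD1. The 4 libraries shared between 8 and 13 cell barcodes in the 6 possible pairings.

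T cell genes that took no part in choosing the cells bore out the CD8 T cell identity. Lck, the kinase bound to the CD8 and CD4 coreceptors, was at 738, 654, 648 and 750.2 CPM. Thy1, a surface glycoprotein of T cells, was at 845, 887, 819.9 and 843 CPM, and Cd2, an adhesion receptor, at 322, 329, 307 and 369 CPM. Cd5, a scavenger-type receptor that tracks signal strength of the T cell receptor, was at 122, 124, 128 and 144 CPM, so all 4 genes were present at similar levels in each library. Cd4 had 3, 2, 8 and 7 UMIs. The T cell receptor constant genes Trac, Trbc1 and Trbc2 were absent from the count tables and are not analysed here.

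Genes with at least 200 UMIs over the 4 libraries were compared, 9135 in number, and a gene was called when it passed 1.5-fold in the same direction in both pairs. Of these, 136 (1.49%) were higher in Aire-/- and 25 (0.274%) were lower, while 17 (0.186%) passed 1.5-fold in opposite directions in the 2 pairs. Within the isotype pair taken alone 280 genes (3.07%) were higher and 98 (1.07%) lower, and within the anti-PD1 pair 303 (3.32%) were higher and 167 (1.83%) lower. The same counts in other cells of the series were, for tumor CD8+ cells, 0.562% higher and 0.297% lower, for CD8 T cells found in the splenic CD45+ libraries 1.13% and 1.33%, and for B cells of those libraries 0.399% and 0.501%. Among the splenic CD8 cells without a Ccl5 UMI the counts were 0.372% higher and 0.396% lower, among those with a Ccl5 UMI 1.91% and 0.132%, and without the cells holding a Mki67 or Top2a UMI 0.755% and 0.222%. The median gene stood at a log2 ratio of 0.01 under isotype and 0.07 under anti-PD1. Each group was 1 library of pooled mice, no test was made, and a difference within a pair had no replicate check. The 95% intervals given below cover counting error only.

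The excess was toward higher genes in Aire-/- in both pairs, and it was less one-sided under anti-PD1, where more genes were lower than under isotype. Among the called genes Sfmbt2, a Polycomb-group gene, had an interval that included 0 in 1 pair, with log2 -0.61 (-1.26 to 0.02) under isotype. At 2-fold in both pairs 65 higher and 5 lower genes remained past the threshold.

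**Figure D1:**
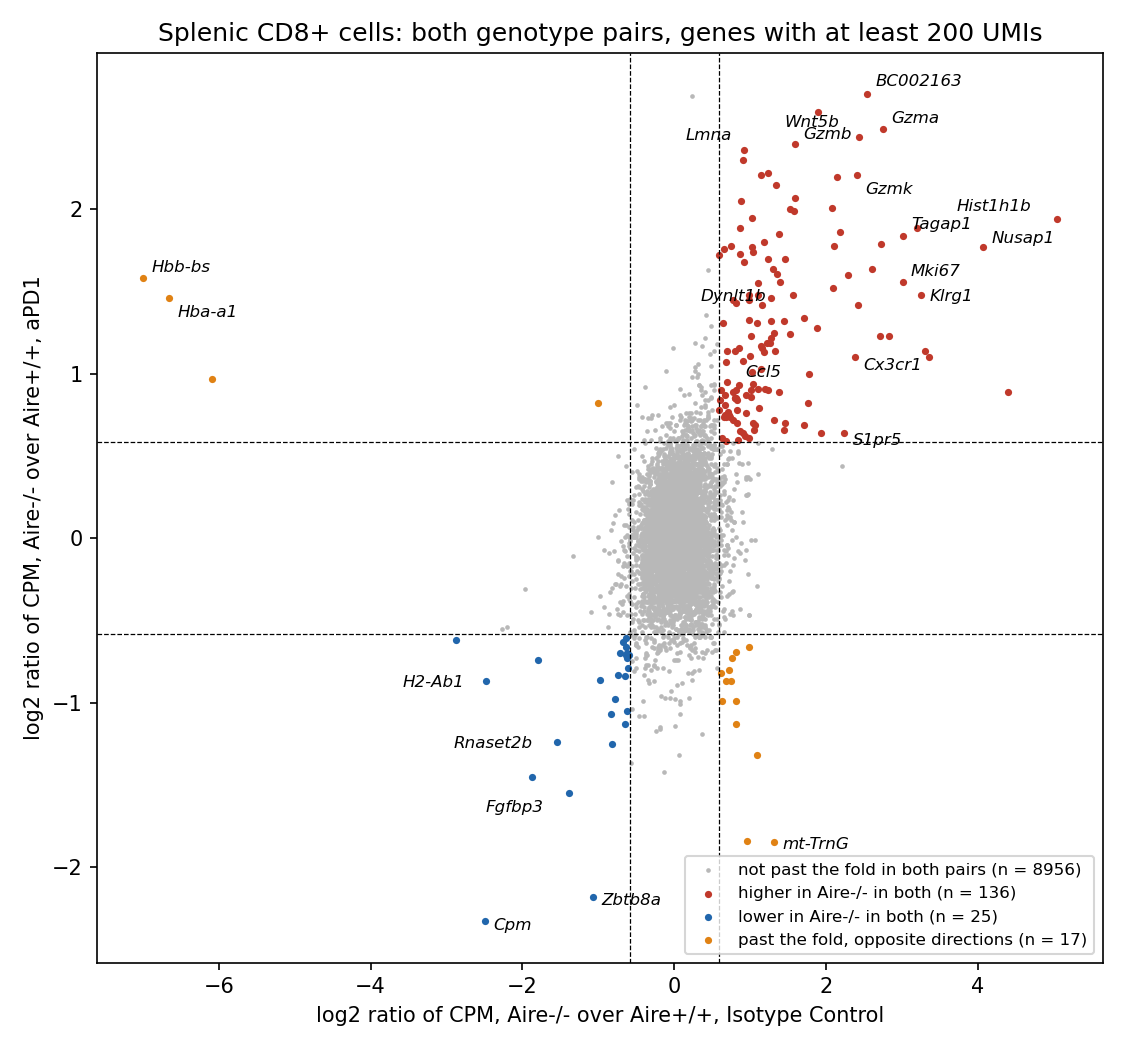
Each point is a gene, with its log2 ratio of Aire-/- over Aire+/+ under isotype on the horizontal axis and under anti-PD1 on the vertical axis; dashed lines mark 1.5-fold. The 136 genes higher in both pairs (red) form a long arm that the 25 lower genes (blue) do not mirror.

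Several cytotoxic effector genes were among those that rose. Killer CD8 cells store granzymes, serine proteases that enter a target through pores made by perforin, and they release chemokines that draw in other cells. These products are scarce in naive cells and are made by a minority of splenic CD8 cells. Of the 21 effector genes compared (of 22 listed), 9 were higher in both pairs and none was lower. The median log2 ratios of the list were 0.44 and 0.56, and its summed level was 3361, 5544, 3041 and 5192 CPM.

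Gzma, the granzyme with trypsin-like activity (chr13:113093824-113100981, GRCm38), was at 83.9 CPM in Aire+/+ and 566 CPM in Aire-/- under isotype, and at 82.0 and 459.6 CPM under anti-PD1. Both Aire-/- libraries were high and both Aire+/+ libraries low and near each other. The ratios were 6.74-fold (log2 2.75, 2.68 to 2.83) and 5.60-fold (log2 2.49, 2.41 to 2.57). Gzmk, a related granzyme that lies beside it (chr13:113171630-113180965), was at 8.41, 44.8, 9.33 and 43.2 CPM. It too was high in both Aire-/- libraries, by 5.32-fold and 4.63-fold. Gzmb, the granzyme that cleaves caspases, is on chromosome 14 and was at 26.8, 80.6, 12.2 and 64.0 CPM. The 2 Aire-/- libraries were again the high ones, with log2 1.59 (1.44 to 1.74) and 2.40 (2.19 to 2.61).

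Ccl5, a chemokine that memory and effector CD8 cells hold as stored message, was at 1552, 2805, 1345 and 2555 CPM. The Aire-/- libraries were higher by 1.81-fold and 1.90-fold, a smaller ratio than those of Gzma, Gzmk and Gzmb. Klrg1, an inhibitory lectin receptor of short-lived effector cells, was at 4.05, 38.5, 4.01 and 11.2 CPM. Its Aire-/- isotype library stood out above the others, with log2 3.25 (2.90 to 3.61) there against 1.48 (1.08 to 1.90) under anti-PD1. Genes of the same terminal effector state, chosen after their values were seen, leaned the same way. Cx3cr1, the fractalkine receptor, was at 5.99, 31.2, 8.52 and 18.3 CPM, and S1pr5, a sphingosine phosphate receptor, at 5.04, 23.8, 4.99 and 7.78 CPM. Both were highest in Aire-/- isotype, and S1pr5 under anti-PD1 was only just past the threshold at 0.64 (0.24 to 1.05). Zeb2, a repressor that drives terminal effector differentiation, had log2 1.71 and 0.69, and Fasl, the death ligand, 1.2 and 0.91.

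The effector program did not rise as a block. Prf1, which encodes perforin, was at 38.2, 48.0, 35.6 and 50.7 CPM, with log2 0.33 and 0.51, under 1.5-fold in both pairs. Gzmm, a granzyme shared with innate lymphocytes, had log2 0.05 and 0.37. Ifng, the cytokine interferon gamma, was at 4.20, 5.26, 5.86 and 6.25 CPM, nearly level between genotypes at 0.32 and 0.09. The chemokines Ccl3 and Ccl4 moved down under anti-PD1, with log2 -1.42 and -0.58, and stood at -0.13 and 0.25 under isotype.

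Cells with a Gzma UMI were counted next, because a summed level can rise through more cells or through more RNA in each. They numbered 68, 200, 72 and 177. They held 23.5, 43.0, 21.0 and 40.7 Gzma UMIs each on average, so both the number of positive cells and the UMIs in a positive cell were higher in Aire-/-. Cells that also held a Mki67 or Top2a UMI, both genes of dividing cells, carried 17.0, 47.9, 31.6 and 38.0% of the Gzma UMIs, in 7, 41, 9 and 31 cells. In the remaining Gzma-positive cells, 61, 159, 63 and 146 in number, the average was 21.7, 28.2, 16.4 and 30.6 Gzma UMIs. Without the dividing-type cells the rise per positive cell was thus smaller under isotype, while the positive cells were still more numerous in both Aire-/- libraries. This division was chosen after the data were seen. After every cell was thinned to 1500 UMIs, which left out 0 cells, 1.71% (1.27 to 2.27), 7.41% (6.37 to 8.56), 1.78% (1.33 to 2.33) and 6.08% (5.18 to 7.07) of cells were positive. Without thinning the shares were 2.43, 8.71, 2.51 and 6.94%. B cells of the splenic CD45+ libraries, which do not make Gzma, were positive at 0.290, 0.151, 0.142 and 0.297% after the same thinning, with median depths of 4222, 4438, 4162 and 4284 UMIs against 6381, 6276, 6294 and 5781 in the CD8 cells. The share of Gzma-positive cells was thus well above that background in each library and rose 4.32-fold (3.12 to 6.08) and 3.42-fold (2.48 to 4.79) in Aire-/-. From summed levels alone, fewer cells of a type and less RNA per cell cannot be told apart.

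Gzmk, Klrg1 and Ccl5 were treated in the same way. Gzmk-positive cells made up 1.11, 4.36, 0.975 and 3.65% after thinning (2.22, 6.62, 1.5 and 5.37% before), with 0% in B cells of each library. Klrg1-positive cells made up 0.679, 3.18, 0.418 and 1.45% (1.14, 5.27, 0.836 and 2.27% before), with 0.178% of B cells in Aire-/- anti-PD1 and 0% in the rest. The Aire-/- libraries were the high ones for both genes, by 3.93-fold and 3.74-fold for Gzmk and by 4.69-fold and 3.47-fold for Klrg1. Ccl5-positive cells rose far less, from 16.2 to 21.7% under isotype and from 15.3 to 20.5% under anti-PD1 (21.8, 27.2, 20.1 and 26% before thinning, B cells 0.435, 0.377, 0.212 and 0.297%). That was a 1.34-fold difference in each pair, so the share of Ccl5-positive cells rose less than the shares of Gzma-, Gzmk- and Klrg1-positive cells.

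Other transcripts held by the Gzma-positive cells were counted as well. Ccl5 was found in 86.8, 93.5, 81.9 and 92.1% of them and Gzmb in 61.8, 70.0, 54.2 and 75.1%. Gzmk was found in 35.3 and 61.0% under isotype and in 26.4 and 58.2% under anti-PD1, a rise in Aire-/- in both pairs. Klrg1 was found in 27.9, 57.5, 29.2 and 28.2%, so its share rose in Aire-/- under isotype and did not under anti-PD1. The median depth of the Gzma-positive cells was 5242, 5565, 4684 and 5130 UMIs, deeper in Aire-/- in both pairs. These shares were not thinned and have no background beside them. Whether Gzma-positive cells of Aire-/- spleens carry Gzmk more often is therefore not decided by them.

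**Figure D2:**
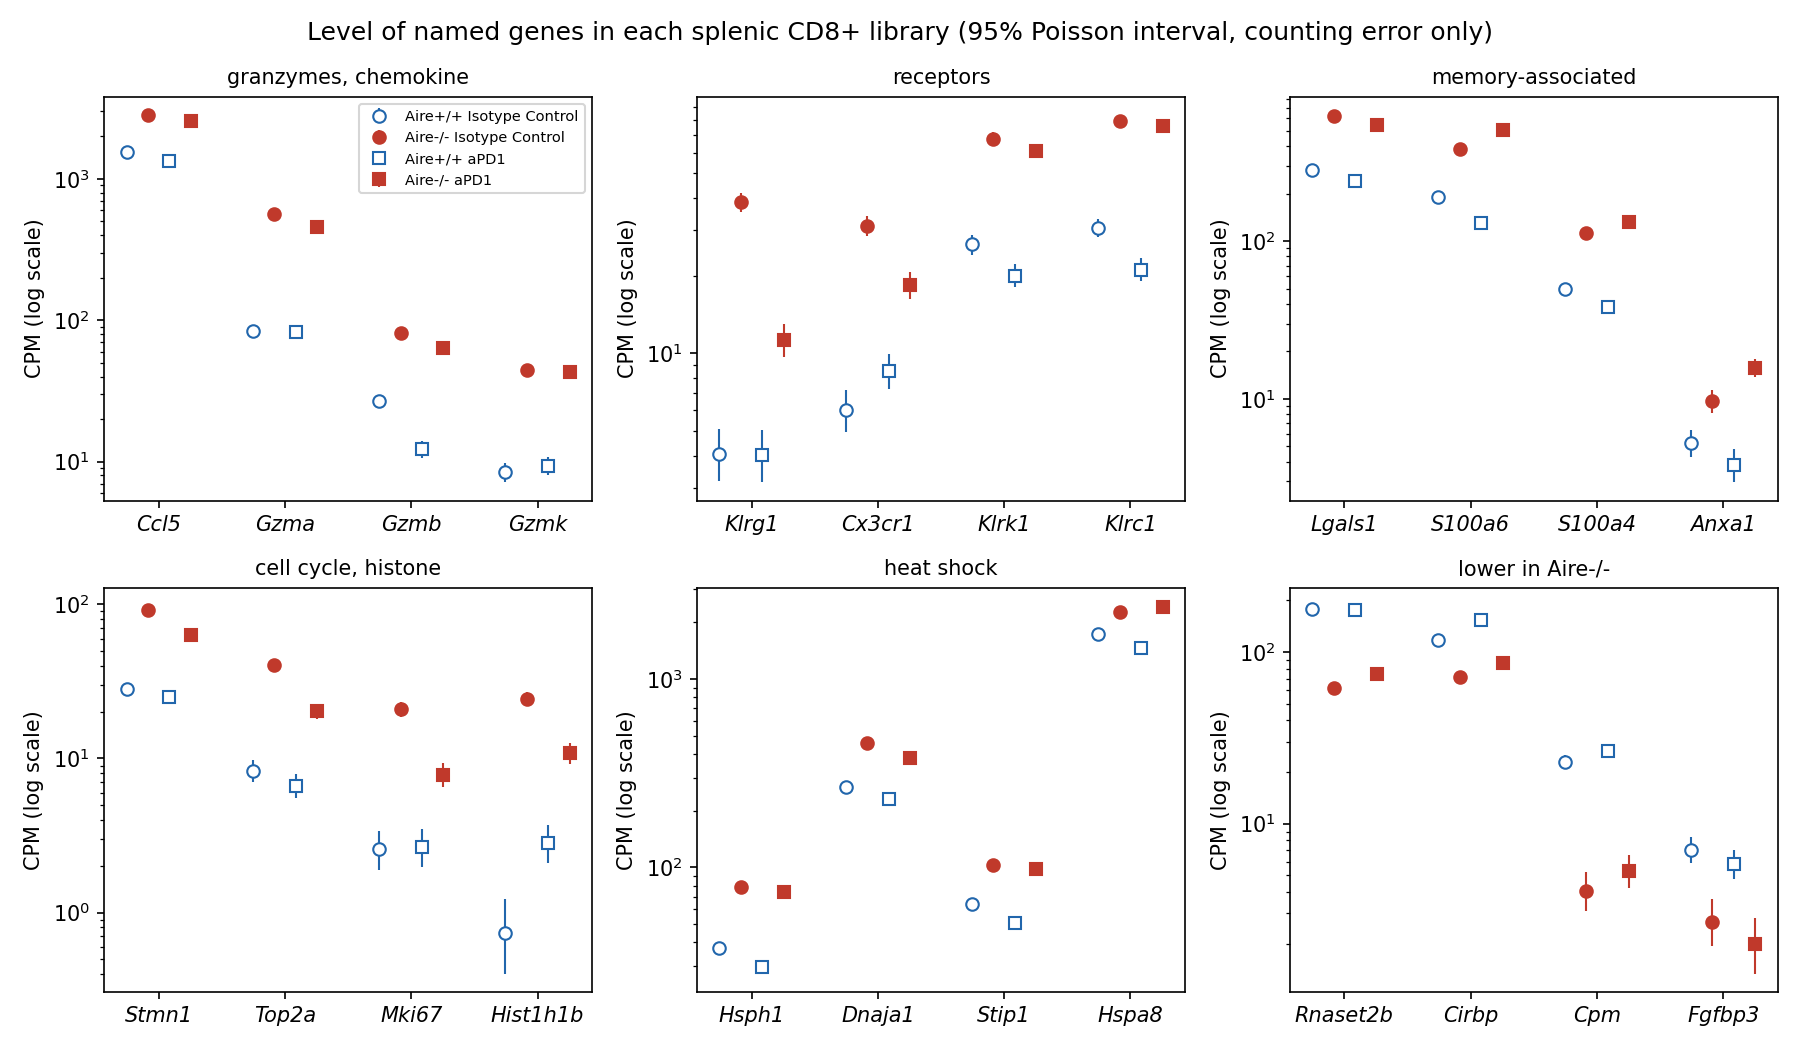
CPM on a log axis of 24 genes in 6 panels, with the 4 libraries side by side and 95% Poisson bars. Gzma, Gzmb, Gzmk, Klrg1 and the cell-cycle genes are high in both Aire-/- libraries, while Rnaset2b, Cirbp, Cpm and Fgfbp3 are low in both.

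Some memory and migration genes rose as well. Antigen-experienced CD8 cells gain small calcium-binding S100 proteins, galectins and annexins, which act in migration and in membrane and cytoskeleton handling. They also use the T-box factors Tbx21 and Eomes, which direct effector and memory programs. Of 29 memory genes compared, 7 were higher in both pairs, 0 were lower and 1 went in opposite directions. The list medians were 0.41 and 0.61, and its sums 4670, 6214, 4295 and 6575 CPM.

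Lgals1, which encodes galectin 1, was at 280.5, 618, 241 and 543 CPM. Both Aire-/- libraries were high, with log2 1.14 (1.09 to 1.19) and 1.17 (1.12 to 1.22). Cells with a Lgals1 UMI numbered 1207, 1003, 1050 and 980, while the UMIs in a positive cell averaged 4.42, 9.37, 4.24 and 8.68. These counts were not thinned and have no background beside them. They cannot tell more cells with high Lgals1 from more RNA in each cell. S100a6 was at 189, 385, 131 and 506 CPM and S100a4, a cytoskeleton-binding relative, at 49.5, 112, 38.0 and 132 CPM. Both were highest in Aire-/- anti-PD1, with log2 1.95 (1.89 to 2.02) and 1.80 (1.68 to 1.93) there, against 1.02 and 1.18 under isotype. Anxa1, an annexin, was at 5.25, 9.66, 3.80 and 15.7 CPM, again highest in Aire-/- anti-PD1.

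Tbx21, which encodes the factor T-bet, was at 21.1, 42.5, 19.0 and 34.4 CPM, with log2 1.01 and 0.86, and was high in both Aire-/- libraries. A rise of Tbx21 past 1.5-fold was also found in 2 of 2 pairs of splenic CD45+ B cells. It was found in 0 of 2 pairs of tumor CD8+ cells and in 0 of 2 pairs of splenic CD45+ CD8 T cells. Eomes was at 41.8, 55.4, 38.5 and 67.0 CPM, past 1.5-fold under anti-PD1 (0.80) and short of it under isotype (0.41). Ahnak, a large scaffold protein, had log2 0.98 and 0.61 and Anxa2 0.68 and 1.07. Crip1, a LIM-domain protein and the most abundant gene of the list, was at 876, 1028, 793 and 1104 CPM, with log2 0.23 and 0.48, under the threshold in both pairs. Cxcr3, a chemokine receptor of memory and effector cells, had 0.32 and 0.93. Tbx21, Eomes, Ahnak, Anxa2 and Cxcr3 were chosen after their values were seen, as were Lgals3 (galectin 3), which had log2 1.34 and 2.15, and Capg, an actin-capping protein, at 0.92 and 1.68. Lgals3 turned to -0.67 and -0.50 in cells without a Ccl5 UMI.

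Surface markers of memory-phenotype cells gave smaller shifts. Ly6c2, an antigen of memory CD8 cells, was detected after thinning in 26.6, 35.0, 25.7 and 35.9% of cells (40.7, 50.5, 40.6 and 52.5% before thinning), a 1.32-fold and 1.40-fold difference, against 1.89, 1.06, 1.13 and 1.13% of B cells. Il2rb, the receptor chain shared by interleukins 2 and 15, was detected in 13.8, 22.1, 16.1 and 19.2% (40.8, 51.3, 41.7 and 47.4% before thinning), a 1.61-fold and 1.19-fold difference, against 0.145, 0.151, 0 and 0.297% of B cells. The Aire-/- libraries were higher for both genes in both pairs. The summed level of Il2rb differed by log2 0.52 and 0.22 and that of Ly6c2 by 0.46 and 0.39, short of 1.5-fold.

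Receptors of the natural killer type were read because activated and memory CD8 cells acquire some of them. They bind MHC-like ligands and either restrain or help killing. Of 12 compared (of 18 listed), 3 were higher in both pairs, Klrc1, Klrk1 and Klre1, while the list medians were -0.09 and 0.10. Above 0 stood 4 of the 12 under isotype, 8 under anti-PD1 and 3 in both. Of all 9135 genes compared, 4797, 5710 and 3075 stood above 0 in the same order. The sums were 487, 563, 429.8 and 599.9 CPM, higher in both Aire-/- libraries. Under isotype the rise thus lay in some members and not in most. Klrc1 (NKG2A, inhibitory) was at 30.5, 79.5, 21.1 and 76.0 CPM and Klrk1 (NKG2D, activating) at 26.4, 67.8, 20 and 61.1 CPM. Both Aire-/- libraries were high, with log2 1.38 and 1.85 for Klrc1 and 1.36 and 1.61 for Klrk1. Klre1 had 1.15 and 1.16. Klrd1, which encodes CD94, the partner of NKG2A, was at 266, 257, 233 and 292 CPM, with log2 -0.05 and 0.33, so it did not move with Klrc1.

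Inhibitory receptors restrain T cells after activation, and PD1 is one of them. Of 11 genes compared from a list of inhibitory receptors and exhaustion genes (of 16 listed), Tigit, Havcr2 and Lag3 were higher in both pairs. Nr4a2 was lower. Lag3, a receptor for MHC class II, was at 5.15, 7.76, 4.01 and 13.3 CPM. It was highest in Aire-/- anti-PD1, with log2 0.59 (0.19 to 0.99) and 1.72 (1.34 to 2.13). Havcr2 (TIM3) was at 2.89, 4.86, 1.46 and 5.04 CPM and Tigit at 4.41, 7.56, 5.97 and 11.1 CPM. Havcr2 had log2 0.75 and 1.78 and Tigit 0.78 and 0.89, with both Aire-/- libraries above their partners. Under isotype the direction of Havcr2 turned with all barcodes (-0.77) and in cells without a Ccl5 UMI (-2.07), and that of Tigit turned in cells without a Ccl5 UMI (-1.67). Pdcd1, the target of the antibody, was at 4.57, 5.59, 5.26 and 6.76 CPM, and its ratios of 0.29 (-0.16 to 0.74) and 0.36 (-0.05 to 0.77) had intervals that included 0. Nr4a2, a nuclear receptor induced by T cell receptor signals, was at 4.52, 2.56, 4.99 and 2.10 CPM, low in both Aire-/- libraries. Its fall under isotype was gone (log2 -0.00) without cells holding a Mki67 or Top2a UMI, and under anti-PD1 it turned to 0.43 in cells without a Ccl5 UMI.

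Cell division formed the next group of higher genes. A dividing cell copies its DNA with nucleotides made by ribonucleotide reductase, packs it on newly made histones and separates it with the mitotic spindle. Most splenic CD8 cells rest, so these transcripts come from few cells. Of 25 cell-cycle genes compared (of 28 listed), 11 were higher in both pairs and none was lower. The list medians were 0.84 and 0.57, and its sums 2033, 2562, 1867 and 2376 CPM.

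Rrm2, a subunit of ribonucleotide reductase, was at 5.67, 25.0, 3.74 and 17.2 CPM, high in both Aire-/- libraries (log2 2.14 and 2.2). Top2a, the topoisomerase that untangles replicated DNA, was at 8.30, 40.6, 6.67 and 20.2 CPM, and Mki67, which coats mitotic chromosomes, at 2.57, 20.8, 2.66 and 7.85 CPM. Both were highest in Aire-/- isotype, with log2 2.29 and 3.01 there and 1.60 and 1.56 under anti-PD1. The Mki67 UMIs came from 19, 44, 16 and 33 cells. Ube2c, which marks mitotic regulators for destruction, had log2 2.72 and 1.79. Tubb5, the tubulin that was the most abundant gene of the list, was level at 725, 705, 662 and 739 CPM.

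Stmn1, a microtubule-destabilising protein chosen after its values were seen, was at 28.2, 92.4, 25.1 and 63.7 CPM, with log2 1.71 (1.57 to 1.86) and 1.34 (1.18 to 1.5). Both Aire-/- libraries were high. Nusap1, a spindle protein, was at 0.736, 12.4, 1.19 and 4.08 CPM. It was found in 5, 27, 4 and 15 cells, so its log2 ratio of 4.07 (3.29 to 4.97) under isotype rested on few cells. Birc5, an inhibitor of apoptosis that acts at the centromere, had log2 2.83 and 1.23 and moved with the cell-cycle genes, not with the other 18 apoptosis genes compared, none of which was called.

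Histone genes added to this group. The replication-dependent histones are transcribed in S phase from clusters, the largest on chromosome 13. Of 32 compared, 15 were higher and 0 lower, with a median log2 ratio of 0.65 in both pairs and sums of 264, 484, 265 and 409 CPM. Without cells holding a Mki67 or Top2a UMI, only Hist1h1b (1.95) and Hist1h2bb (1.16) of the called histones stayed past 1.5-fold under isotype. Hist1h1b rested there on 3 and 9 UMIs, with an interval of -0.05 to 4.47. Hist1h2ae was then at 0.12 and Hist1h2ac at -0.29 under isotype. Under anti-PD1 Hist1h1b (2.49), Hist1h2bn (0.96), Hist1h2ai (0.72), Hist1h4k (0.71), Hist1h2bj (0.70), Hist1h2bb (0.68) and Hist1h3a (0.65) stayed past it. The other called histones did not. Hist1h1b, a linker histone, was at 0.736, 24.3, 2.82 and 10.8 CPM, highest in Aire-/- isotype, with log2 5.04 (4.28 to 5.93) and 1.94 (1.49 to 2.42). Hist1h2ae, a core histone, was at 4.94, 30.1, 5.21 and 16.3 CPM and was high in both Aire-/- libraries. Histone genes are near-identical to one another, so the assignment of a read to a single one is uncertain.

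Cells holding a Mki67 or Top2a UMI numbered 81 (2.89%), 101 (4.40%), 66 (2.30%) and 85 (3.33%). These shares were not thinned and have no background beside them, so no difference is read from them. When they were left out, 68 genes were higher and 20 lower. Of the 136 higher genes, 87 could still be compared and 64 of those stayed past 1.5-fold, and 17 of 23 lower genes did. Gzma stood at log2 2.12 and 2.38 without those cells. The median of the cell-cycle list under isotype turned to -0.03 without them, and Ube2c to -0.27. Under anti-PD1 Ube2c did not turn (1.79, 0.58 to 3.16). Mki67 and Top2a are members of that list, so a fall of its median was partly set by the choice of cells. The share of cells with a Mki67 UMI after thinning was 0.214, 0.828, 0.0348 and 0.510%, while B cells showed 0.725, 0.151, 0.425 and 0.178%. The Aire+/+ shares lay below those of B cells and the Aire-/- shares above them. B cells divide too, so they are no background for Mki67, and the share is not relied on.

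Heat-shock genes shifted in a partial way. Chaperones fold proteins and hold damaged ones, and their genes are induced by heat and other stress, including the handling of tissue. Of 13 compared (of 14 listed), 2 were higher in both pairs, Hsph1 and Dnaja1, and 11 stood above 0 in both. Of all 9135 genes compared, 3075 stood above 0 in both. The sums were 4500, 5611, 4024 and 5673 CPM, and the list medians 0.11 and 0.44. Hsph1, an exchange factor of the HSP70 system, was at 37.1, 78.9, 29.7 and 73.7 CPM, with log2 1.09 (0.95 to 1.23) and 1.31 (1.16 to 1.46). Dnaja1, an HSP40 co-chaperone, was at 268, 460.4, 231 and 382 CPM, with log2 0.78 and 0.72. Both genes were high in both Aire-/- libraries.

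Hsph1 was found in 581, 863, 467 and 832 cells, so its rise was spread over many cells. Stip1, the adaptor between HSP70 and HSP90, was at 63.7, 103, 50.6 and 97.7 CPM, and Ahsa2, a relative of an HSP90 activator, at 18.7, 32.7, 13.9 and 30.6 CPM. Both were chosen after their values were seen and were high in both Aire-/- libraries, with log2 0.69 and 0.95 for Stip1 and 0.80 and 1.14 for Ahsa2. Hspa8, the constitutive HSP70 and the most abundant gene of the list, was at 1741, 2284, 1463 and 2417 CPM, past 1.5-fold under anti-PD1 (0.72) and short of it under isotype (0.39). Hsp90aa1 and Dnajb1 were past it under isotype (0.79 and 0.85) and short of it under anti-PD1 (0.30 and 0.46). Hspa1a, an HSP70 gene strongly induced by heat, went from 5.99 to 4.67 CPM under isotype and from 3.04 to 4.78 CPM under anti-PD1, without a shared direction.

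Cirbp, an RNA-binding protein induced by cold and repressed by heat, went the other way. It was at 118 and 71.1 CPM under isotype and 154 and 86.2 CPM under anti-PD1. Both Aire-/- libraries were low, with log2 -0.74 (-0.84 to -0.63) and -0.83 (-0.93 to -0.74). Cells with a Cirbp UMI numbered 1492, 817, 1721 and 1000. Whether temperature or handling differed between the genotypes was not tested.

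The lower genes were of mixed function, and no set of them was tested as a program. Rnaset2b, a lysosomal ribonuclease (chr17:6978860-6998193), was at 179, 61.4, 175 and 74.0 CPM. Both Aire-/- libraries were low, by 2.91-fold (log2 -1.54, -1.65 to -1.44) and 2.36-fold (log2 -1.24, -1.34 to -1.14), and cells with a UMI numbered 1903, 629, 1846 and 828. A near-identical copy, Rnaset2a, had 0 UMIs in all 4 libraries, so which copy the reads came from is uncertain. Cpm, a membrane carboxypeptidase (chr10:117629500-117687352), was at 22.9, 4.08, 26.5 and 5.29 CPM. It was low in both Aire-/- libraries, by 5.62-fold and 5.01-fold, and was found in 381, 59, 412 and 79 cells.

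Fgfbp3, a binding protein of fibroblast growth factors, was at 7.04, 2.69, 5.81 and 1.98 CPM and Zbtb8a, a zinc-finger protein, at 9.40, 4.47, 10.7 and 2.36 CPM. Ckb, the brain-type creatine kinase, was at 5.57, 1.51, 5.59 and 2.04 CPM. All 3 were low in both Aire-/- libraries and, with Rnaset2b and Cpm, made up the 5 genes that fell past 2-fold in both pairs. Exo5, a single-strand DNA exonuclease, had log2 -0.98 and -0.86. Plaur, the urokinase receptor, had -0.83 and -1.07. H2-Ab1, a chain of MHC class II, was at 43.7, 7.82, 36.0 and 19.7 CPM but came from 22, 15, 15 and 35 cells, which held 37.8, 7.93, 44.3 and 8.83 UMIs each. Its fall under anti-PD1 (log2 -0.87) turned to 0.28 when each cell had equal weight and to 0.39 after thinning, so it is not a finding about most cells. Other genes of antigen-presenting cells, chosen after their values were seen, fell beside it in both pairs. H2-Aa, the partner chain, had log2 -2.20 and -0.54, H2-Eb1, another class II chain, -2.27 and -0.55, and Cd74, the class II chaperone, -1.96 and -0.31. Plbd1, a called lower gene, came from 7, 2, 5 and 5 cells. Doublets were not searched for, and T cells captured together with an antigen-presenting cell would pass the choice of cells.

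Several higher genes had no clear link to T cell function. BC002163, a near-identical relative of Ndufs5 with positions on chromosomes 16 and 4, was at 11.9, 69.1, 12.6 and 82.0 CPM, in 212, 851, 224 and 971 cells. Ndufs5, a subunit of respiratory complex I, was level at 66.2, 56.7, 56.3 and 62.3 CPM, and the division of reads between them is uncertain. Their sum was 78.1, 126, 68.9 and 144 CPM, still past 1.5-fold (log2 0.69 and 1.07). Wnt5b, a secreted signalling protein, was at 1.79, 9.66, 1.95 and 10.6 CPM, with log2 2.44 in both pairs. Erc1 (chr6:119570796-119848184), a scaffold protein encoded next to Wnt5b (chr6:119432531-119544824) and chosen after its values were seen, had log2 1.03 and 1.77. Both neighbors were high in both Aire-/- libraries.

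Dynlt1b, a dynein light chain, was chosen after its values were seen and was at 32.2, 94.9, 31.7 and 88.6 CPM. It was high in both Aire-/- libraries, with log2 1.56 (1.42 to 1.70) and 1.48 (1.34 to 1.63), and was found in 533, 964, 529 and 942 cells. It belongs to 4 near-identical copies, whose sum was 39.1, 103, 38.5 and 97.6 CPM (log2 1.40 and 1.34), so the rise did not depend on how reads were divided among them. Tagap1 was at 1.21, 9.73, 2.01 and 7.21 CPM, with log2 3.01 and 1.84. Its relative Tagap, a GTPase-activating protein of T cells, was at 83.6, 106, 83.9 and 106 CPM, and the sum of the 2 fell short of 1.5-fold (0.44 and 0.40), so the rise of Tagap1 is uncertain. Car5b, a mitochondrial carbonic anhydrase, had log2 2.08 and 2.01, and Myadm, a membrane protein first described in myeloid cells, 1.89 and 2.59.

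Positions on the chromosomes were compared because a knockout allele can carry linked strain differences. Aire lies at chr10:78030022-78043610. Within 2 Mb of it 0 of 43 compared genes were called, within 5 Mb 1 of 131, Cirbp (chr10:80165990-80172786), and within 10 Mb 3 higher and 1 lower of 157. No cluster thus surrounded Aire itself. Of 235 windows of 10 Mb with at least 10 compared genes, 5 held 5 or more called genes. The window at 0 to 10 Mb of chromosome 17 held 5 of 24 (20.8%, against 1.76% of all compared genes): Tmem181a, Dynlt1b and Tagap1 were higher, and Rnaset2b and 1700010I14Rik were lower.

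Those 5 genes lie between chr17:6256726-6308314 (Tmem181a) and chr17:8988320-9008319 (1700010I14Rik). Tmem181a, a membrane protein with close copies, had log2 0.67 and 0.81, and 1700010I14Rik -1.80 and -0.74. Of the other 4 windows, that at 20 to 30 Mb of chromosome 13 held 14 of 43, the histone cluster, and that at 120 to 130 Mb of chromosome 6 held 8 of 67. On chromosome 4 the windows at 120 to 130 Mb and 130 to 140 Mb held 6 of 77 and 6 of 99. They included Sytl1 (log2 0.95 and 0.87), which acts in vesicle docking, Ubxn11 (0.91 and 1.08), Wdtc1 (0.80 and 0.85) and Adgrb2 (0.98 and 1.48), an adhesion receptor, as higher genes and Zbtb8a as a lower one. These genes were chosen after their values were seen, and a difference in strain background around them was not tested.

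**Figure D3:**
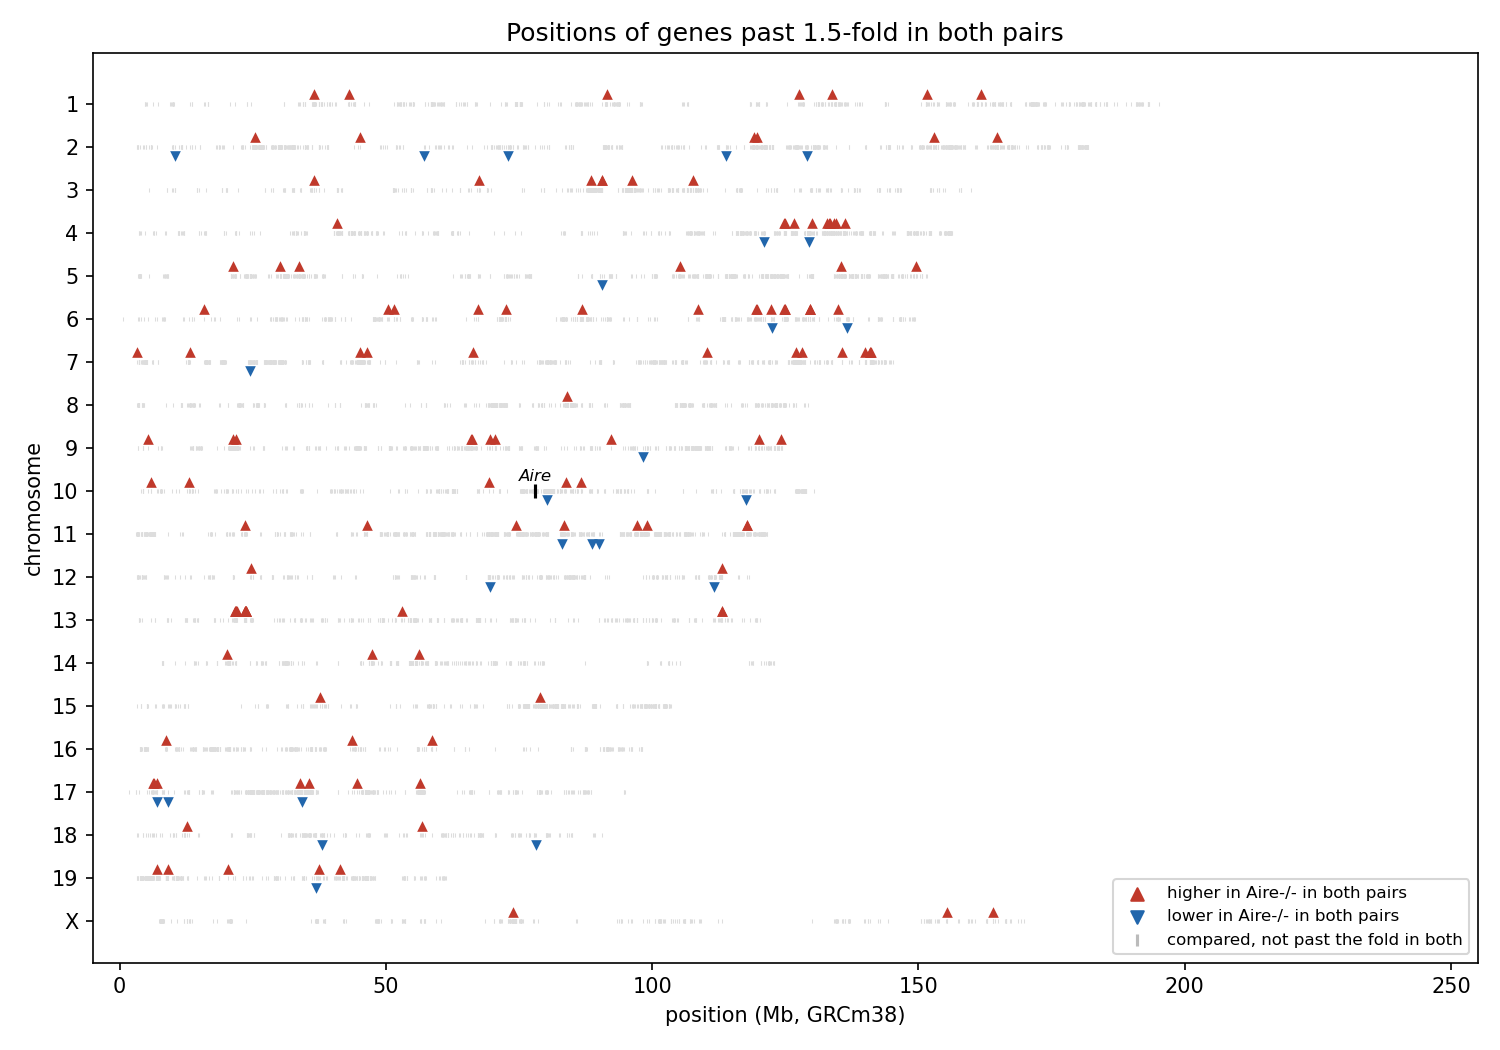
Positions in Mb (GRCm38) of the called genes on each chromosome, with upward triangles for higher and downward triangles for lower genes in Aire-/-. The groups on chromosome 17 below 10 Mb, on chromosome 4 and at the histone cluster of chromosome 13 can be seen, while the mark of Aire on chromosome 10 has no group around it.

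The kept cells were divided by Ccl5 to see which differences lay in antigen-experienced cells. Ccl5 message separates most memory and effector CD8 cells from naive ones. It was itself a called higher gene, and the division used unthinned UMIs, so the groups are partly set by the difference studied. Cells with a Ccl5 UMI numbered 609, 625, 576 and 663, and cells without one 2190, 1670, 2295 and 1888. Among the 136 higher genes, 78 of 92 compared were past 1.5-fold in both pairs in cells with Ccl5, 22 of 50 compared in cells without it, and 14 in both groups. Of the 25 lower genes, 19 of 19 compared were past it in cells without Ccl5 and 4 of 7 compared in cells with it. Different genes reached the UMI minimum in the 2 groups, so these counts do not rank the groups against each other.

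Gzma in cells with Ccl5 was at 309, 1769, 339.9 and 1552 CPM (log2 2.52 and 2.19), so the Aire-/- libraries were high within that group too. In cells without Ccl5 it was at 5.25, 21.0, 2.56 and 1.90 CPM and its direction under anti-PD1 turned (-0.43). Lgals1 had log2 1.23 and 1.34 in cells with Ccl5 and 0.12 and -0.10 in those without. Gzmb turned to -1.06 and -1.23 in cells without Ccl5, Havcr2 to -2.07 and -1.46 and Cx3cr1 to -3.03 and -1.65. Under anti-PD1 these turns rest on few UMIs, 18 and 6 for Gzmb, 14 and 4 for Havcr2 and 4 and 1 for Cx3cr1. Their intervals there included 0. Cx3cr1 under isotype had 11 and 1 UMIs. S100a6 had 0.86 and 1.72 in cells with Ccl5 and 0.09 and 1.03 in those without, so under anti-PD1 it rose in both. Hsph1 passed 1.5-fold in both groups, with log2 1.17 and 1.41 without Ccl5 and 0.88 and 1.02 with it. Dynlt1b (1.47 and 1.42, 1.79 and 1.70), BC002163 (2.48 and 2.67, 2.68 and 2.83), Rnaset2b (-1.41 and -1.17, -1.88 and -1.42) and Cirbp (-0.70 and -0.79, -0.80 and -0.93) kept their direction in both groups. The isotype fall of Rnaset2b was smaller without Ccl5 (-1.54 to -1.29) than with it (-2.10 to -1.66). Not every effector or memory gene passed 1.5-fold within the Ccl5 cells. Under anti-PD1 Zeb2 was at 0.33 (-0.12 to 0.79) there, S1pr5 at 0.31 (-0.09 to 0.72), Fasl at 0.55, Tbx21 at 0.56 and Ahnak at 0.54, all short of 1.5-fold.

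Other cells of the same series were then read for the called genes. They may come from the same pooled mice, so they are a second look at the animals more than a repeat. In tumor CD8+ cells 13 of 135 higher genes (9.63%, against 0.562% of all genes compared) passed 1.5-fold in the same direction in both pairs. Of the lower genes 5 of 23 did (21.7%, against 0.297%). CD8 T cells found in the splenic CD45+ libraries were only 154, 161, 172 and 207 cells. In them 9 of 44 higher genes (20.5%, against 1.13%) and 4 of 10 lower genes (40%, against 1.33%) did. In B cells of those libraries 14 of 98 (14.3%, against 0.399%) and 6 of 21 (28.6%, against 0.501%) did. Most of the higher genes that could be compared were thus not past 1.5-fold in both pairs of these cells, and 92 of the 136 had too few UMIs for that in the splenic CD45+ CD8 T cells. Taken pair by pair, those CD8 T cells had 32 of 58 higher genes past 1.5-fold upward under anti-PD1 (55.2%, against 9.52% of all genes compared). Above 0 stood 93.1% of them, against 56.1% of all genes. Under isotype 21 of 64 were past it upward (32.8%, against 6.97% of all genes compared) and 24 downward (37.5%, against 9.61%). There 56.2% stood above 0, against 49.1% of all genes. B cells also differed by pair, with 15 of 102 upward and 30 downward under isotype (29.4% downward, against 2.80%) and 55 of 104 upward and 4 downward under anti-PD1 (52.9% upward, against 2.93%). In tumor CD8+ cells 18 of 135 were upward (13.3%, against 1.39%) and 0 downward under isotype (against 1.56%). Under anti-PD1 17 were upward (12.6%, against 1.92%) and 5 downward (3.7%, against 1%). In splenic CD45+ CD8 T cells 11 of 13 lower genes were downward under isotype (84.6%, against 9.61%) and 6 under anti-PD1 (46.2%, against 6.74%). None was upward there. In B cells 7 of 21 were (33.3%, against 2.8%) and 11 of 22 (50%, against 2.28%), with 1 and 0 upward. In tumor CD8+ cells 8 of 24 were (33.3%, against 1.56%) and 5 of 23 (21.7%, against 1%), with 2 and 1 upward.

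Rnaset2b was low and Dynlt1b and BC002163 were high in Aire-/- in every one of these cell sets and both pairs. Rnaset2b had log2 -1.21 and -1.14 in splenic CD45+ CD8 T cells, -1.25 and -2.31 in tumor CD8+ cells and -1.32 and -1.26 in B cells. Dynlt1b had 1.37 and 1.38, 1.14 and 1.67, and 1.64 and 1.36 in the same order. Cpm fell in both sets of CD8 cells, with -2.92 and -2.66 in the spleen and -4.32 and -2.34 in the tumor, and was level in B cells at -0.13 and -0.11. Hsph1 was high in splenic CD45+ CD8 T cells (1.52 and 1.47) and B cells (1.07 and 1.70) but not in tumor CD8+ cells (0.53 and -0.03). Cirbp had log2 -0.86 and -0.68 in splenic CD8 T cells and -0.51 and -0.74 in B cells, the isotype value of B cells being short of 1.5-fold, and stood at -0.11 and -0.22 in the tumor.

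Gzma was higher in splenic CD45+ CD8 T cells (1.99 and 1.46) and in tumor CD8+ cells (1.36 and 1.18). Gzmk (2.18 and 0.15), Gzmb (1.74 and 0.49) and Ccl5 (1.38 and 0.07) were past 1.5-fold in the former under isotype and short of it under anti-PD1. In the tumor Gzmk had 0.25 and 0.51 and Gzmb 0.24 and 0.25, short of 1.5-fold, and Lgals1 did not move (-0.12 and 0.04). The cell-cycle rise was not found in the tumor, and in the splenic CD45+ CD8 T cells Mki67 and Top2a reached 20 UMIs only in the isotype pair. Mki67 in the splenic CD45+ CD8 T cells had 23 UMIs in Aire+/+ and 1 in Aire-/- under isotype, opposite to the sorted cells, and in the tumor its log2 ratios were -0.09 and -0.34. Top2a had -3.12 in the former under isotype and -0.07 and -0.25 in the tumor. In B cells Top2a, Rrm2 and Ube2c each passed 1.5-fold upward in 1 of the 2 pairs, and Mki67 in 0.

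**Figure D4:**
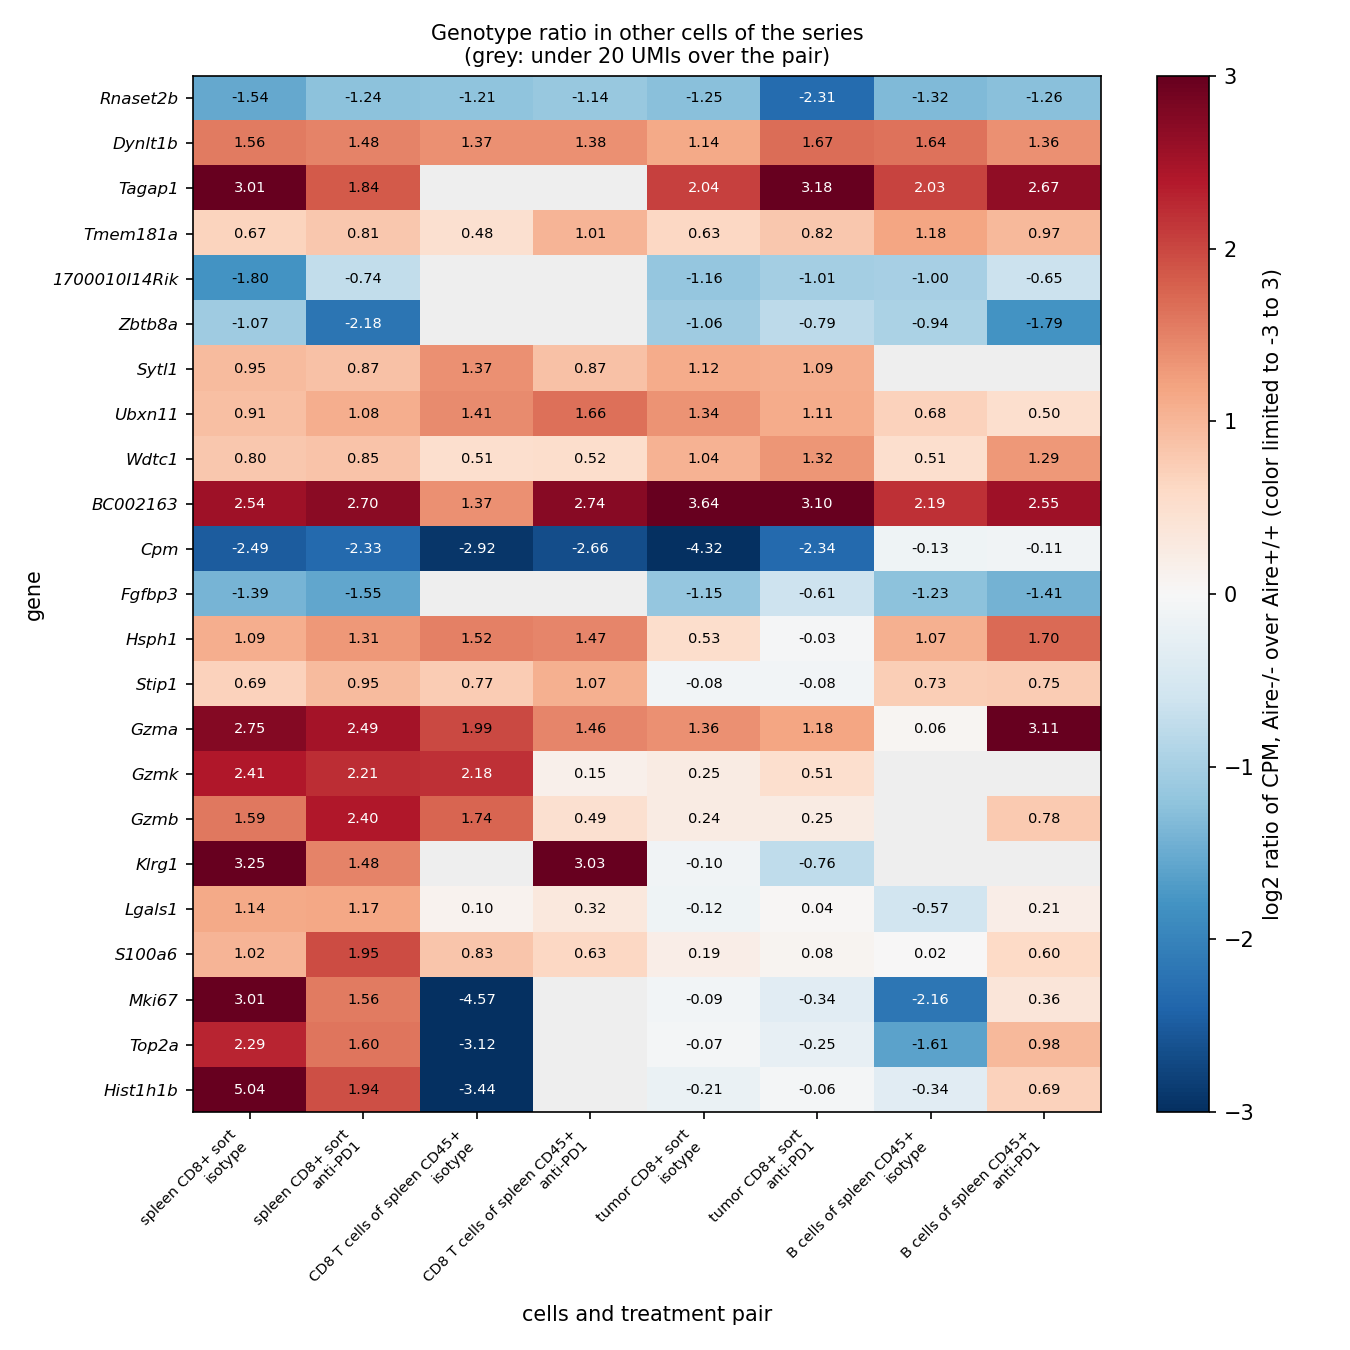
Color shows the log2 ratio of Aire-/- over Aire+/+ (limited to -3 to 3) of 23 genes in 4 sets of cells under isotype and anti-PD1, grey under 20 UMIs over the pair. Rnaset2b, Dynlt1b and BC002163 keep their direction across the sets, while the cell-cycle genes do not.

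Genes of resting cells stayed level. Naive CD8 cells keep Ccr7 for entry into lymph nodes and use the factors Tcf7 and Lef1. Of 20 naive genes compared none was called, with medians -0.03 and 0.03. Ccr7 was at 484, 445, 465 and 488 CPM, near level between genotypes in both pairs, with log2 -0.12 and 0.07. Dapl1, a gene of naive-type CD8 cells chosen after its values were seen, was at 354, 238, 358 and 238 CPM. It was low in both Aire-/- libraries, by log2 -0.57 and -0.59, close to 1.5-fold in both pairs but not past it under isotype.

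Signalling genes moved little. Of 25 T cell receptor signalling genes none was called (medians -0.01 and 0.07), and of 16 MHC class I genes none was (0.05 and 0.21). H2-K1, a classical class I heavy chain, was at 2511, 2895, 2438 and 2976 CPM, a little higher in both Aire-/- libraries. None of the 38 type I interferon genes compared from the list was called (0.01 and -0.02), and none of 19 interferon gamma genes (0.20 and 0.37). Of the latter 16 stood above 0 in both pairs, against 3075 of all 9135 genes compared. Ifi47, a GTPase induced by interferon gamma, was at 281, 348, 247 and 353 CPM. It was higher in both Aire-/- libraries by log2 0.31 and 0.52, short of 1.5-fold. Outside the lists, and chosen after their values were seen, interferon-inducible genes were among the higher ones. Ifitm1, a membrane protein of antiviral defence, was at 61.8, 145, 70.5 and 228 CPM and Gbp10, a guanylate-binding protein, at 4.73, 9.07, 5.48 and 9.25 CPM, high in both Aire-/- libraries. Ifitm1 came from 34, 56, 33 and 78 cells. Its near-identical relatives Ifitm2 (log2 0.65 and 1.76) and Ifitm3 (1.52 and 2.0) were higher too, and how reads were divided among the 3 is uncertain. In cells without a Ccl5 UMI all 3 turned under anti-PD1, to -1.49 (-2.11 to -0.92) for Ifitm1, -0.60 for Ifitm2 and -0.80 for Ifitm3. Glycolysis genes (-0.09 and 0.22) and ribosomal protein genes (-0.09 and -0.05) had no called gene.

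Single genes of other lists were called. Bhlhe40, a transcription factor of activated T cells and the called member of 25 immediate early genes compared, was at 4.94, 12, 4.94 and 12.3 CPM. Il12rb2, a chain of the interleukin 12 receptor and the called member of 26 JAK-STAT genes, was at 2.05, 4.21, 2.28 and 3.70 CPM. Ccr2, a receptor for inflammatory chemokines, was at 12.8, 27.5, 11.6 and 32.1 CPM, and Itgax, the integrin CD11c that activated CD8 cells also carry, at 5.36, 10.6, 4.07 and 11.1 CPM. All 4 were high in both Aire-/- libraries. Itgax turned to -1.89 and -1.0 in cells without Ccl5.

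Markers of other cells were read over their whole lists, and their part in the results was not tested. B cell markers (6 compared of 18) summed to 603, 319, 503 and 445 CPM with Ighm the most abundant and medians of -2.08 and -0.42, and Pax5 had 0, 0, 0 and 1 UMIs. Conventional dendritic cell markers (4 of 11) summed to 703, 571, 663 and 632 CPM, with Ccr7 the most abundant, which naive CD8 cells also use, and their medians were -0.50 and -0.14. Clec9a, a receptor of cross-presenting dendritic cells, had 31, 8, 25 and 11 UMIs, and Cst3, a protease inhibitor that dendritic cells make, was at 198, 108, 179 and 123 CPM, so both were lower in Aire-/- in both pairs. Clec9a was under the 200-UMI minimum. Of the other members Itgax was called higher. Fscn1, an actin-bundling protein also under the minimum, had 13, 12, 3 and 14 UMIs, with log2 0.21 (-1.05 to 1.46) under isotype. Plasmacytoid markers (5 of 11) summed to 258, 242, 232 and 251 CPM, with Bst2 the most abundant. Macrophage and monocyte markers (2 of 14) summed to 158, 166, 151 and 184 CPM, with Ctss the most abundant, with Adgre1 at 0. Their medians were 0.52 and 0.79, over Ctss and the called higher gene Ccr2. Natural killer cell markers (4 of 9) summed to 57.6, 68.7, 59.6 and 87.5 CPM, with Eomes, which CD8 cells also use, the most abundant, and Ncr1 had 0, 0, 0 and 1 UMIs.

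Regulatory T cell markers (4 of 7) summed to 101, 89.3, 101 and 103 CPM, with Tnfrsf18 the most abundant, and Foxp3 had 49, 10, 31 and 26 UMIs. CD4 T cell markers (3 of 6) summed to 131, 137, 115 and 147 CPM, with Ctsb the most abundant. Innate-like T cell markers (1 of 10) summed to 3.84, 6.84, 3.96 and 4.72 CPM, with Cd163l1 the most abundant, with Sox13 at 0. Neutrophil markers (0 of 8) summed to 0, 0, 0.163 and 0 CPM, with S100a8 and S100a9 at 0. Erythroid and platelet markers (5 of 11) summed to 269, 6.31, 6.35 and 8.16 CPM, with Hbb-bs the most abundant, with Pf4 at 0. Of these lists the red blood cell one differed most, high in Aire+/+ isotype and low in the other 3 libraries.

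Some genes passed 1.5-fold in opposite directions in the 2 pairs. Whether this depended on treatment or on single libraries was not tested. Hbb-bs, a beta globin, was at 159.9, 1.25, 0.597 and 1.79 CPM, high in Aire+/+ isotype and low in the rest, which gave log2 -7.00 and 1.58. Xcl1, a chemokine of activated CD8 cells, was at 53.0, 26.4, 34.1 and 60.2 CPM, and Cxcr4, the receptor for the bone marrow chemokine CXCL12, at 11.3, 19.9, 20 and 12.4 CPM. Both changed direction with treatment. Snord35a, a small nucleolar RNA, was at 21.1, 41.1, 99.6 and 27.7 CPM, highest in Aire+/+ anti-PD1. Xcl1, Cxcr4 and Snord35a were chosen after their values were seen. The mitochondrial genes rose in Aire-/- under isotype (median 0.33, with 21 of 21 above 0) and fell under anti-PD1 (-0.37, with 0 above 0).

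Choices of scale and gate left the main counts near their size, while other choices of cells moved them. Without cells holding a Mki67 or Top2a UMI 68 genes were higher and 20 lower. Cells without a Ccl5 UMI gave 32 and 34, and cells with one 130 and 9. With median-of-ratios factors 125 of the 136 higher and 25 of the 25 lower genes were still past 1.5-fold, and with each cell given equal weight 112 and 17 were. With every barcode taken, ungated, 110 and 15 were. The counts fell to 42 and 8 after thinning, where fewer genes reached 200 UMIs. Of the higher genes that could be compared after thinning, 33 of 37 were still past 1.5-fold, and of the lower ones 6 of 7.

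In splenic CD8 cells of tumor-bearing mice without Aire, Gzma, Gzmk, Gzmb, Klrg1 and Ccl5 were higher under both treatments, with more Gzma-positive cells. Gzmk, Gzmb and Ccl5 stayed short of 1.5-fold in splenic CD45+ CD8 T cells under anti-PD1. Gzmk, Gzmb and Klrg1 did not rise past it in either pair of tumor CD8+ cells. Gzma UMIs per positive cell were higher too, in large part under isotype through the few cells that also held Mki67 or Top2a. Lgals1, a memory gene, rose within the Ccl5 cells, while S100a6 rose there and, under anti-PD1, also in the cells without Ccl5, and Ccr7 and Pdcd1 did not move past 1.5-fold. Transcripts of Mki67, Top2a and 15 of 32 histone genes rose too, but Mki67 came from few cells, neither Mki67 nor Top2a rose in tumor CD8+ cells, and both went the opposite way in splenic CD45+ CD8 T cells under isotype. Of the called histones, only Hist1h1b, on few UMIs, and Hist1h2bb stayed past 1.5-fold under isotype without cells holding Mki67 or Top2a. Under anti-PD1 more of them did, among them Hist1h2bn and Hist1h2ai. Hsph1 rose past 1.5-fold in CD8 and B cells of the spleen and Cirbp fell past it in CD8 cells of the spleen, while both stayed short of it in tumor CD8+ cells. Rnaset2b, Dynlt1b and BC002163 differed in every cell set read. With 1 library of pooled spleens per group, none of these differences has been separated from variation between pools.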

How the data were processed

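Splenic CD8+ sorted cells from pooled spleens of MC38-bearing Aire+/+ and Aire-/- mice, treated with isotype control or anti-PD1, were read from 4 of the 16 deposited count tables of the series. The authors made UMI count tables of genes by cell barcodes with Cell Ranger, per the published methods, against GRCm38, per the submitters' processing notes, and the values were used as deposited. The labels state Chromium 3' chemistry for these libraries. The methods describe both a 3' kit and, for cells sorted in the same way and also read for T cell receptors, a 5' kit with a stated Cell Ranger version, and which of them made these tables was not settled. The study kept cells with at least 200 genes and under 20% mitochondrial UMIs, a filter that 2, 6, 14 and 3 of the kept cells failed (order: Aire+/+ isotype, Aire-/- isotype, Aire+/+ anti-PD1, Aire-/- anti-PD1). The T cell receptor constant genes have no values in the tables and are not analysed here. 12 libraries with 28526 barcodes were read, and the 4 tumor CD45+ tables were not used.

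Barcodes were kept with at least 1 UMI of Cd8a or Cd8b1, at least 1 of Cd3e, Cd3d or Cd3g, at most 1 of Cd79a and 0 of Siglech. UMIs were summed over kept cells for 24496 symbols, 14818 of them with a UMI, and the libraries held 19033371, 15213405, 18431322 and 15678292 UMIs. CPM used all genes. The Aire-/- library was divided by the Aire+/+ library within each treatment, for genes with at least 200 UMIs over the 4 libraries, and a gene was called past 1.5-fold in the same direction in both pairs. A floor of 3 counts was used, and no ratio was given where both sides were at or below it. Intervals at 95% were conditional exact for ratios, exact Poisson for CPM and Clopper-Pearson for shares, and cover counting error only. With 1 library per group no test was made. No doublet caller was run. Shares of cells used cells thinned at random to 1500 UMIs (seed 1), with B cells of the splenic CD45+ libraries (at least 2 Cd79a UMIs) as background, because the CD8+ libraries held only 9, 9, 6 and 16 B cells. Other libraries were compared where a gene had at least 20 UMIs over a pair.

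The members and the 28 gene lists were chosen with earlier results of these data known. Genes were named by a rule: the most abundant gene of a list and up to 4 of its called genes, up to 15 called genes per direction and 3 opposite ones; the rule named 89 genes, of which 53 were past 1.5-fold in both pairs. Further genes are said to be chosen after their values were seen. Near-identical gene copies were also summed. Coordinates were taken from the RefSeq GRCm38.p6 table. Alternatives were other scalings, gates, UMI minimums, folds, thinning, and cells with or without a Ccl5 UMI; leaving out cells with a Mki67 or Top2a UMI and leaving out hemoglobin genes were added after the data were seen. The code was tested on simulated data. Python 3.11.15, numpy 2.4.6, scipy 1.17.1, pandas 2.3.3 and matplotlib 3.10.9 were used. Some genes are withheld and are not reported here.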

Additional observations from a re-analysis of the deposited data

Results flagged for a closer look

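Hemoglobin transcripts differed by library and not by genotype. Hbb-bs had a log2 ratio of Aire-/- over Aire+/+ of -7.00 under isotype and 1.58 under anti-PD1, and Hba-a1 had -6.65 and 1.46. Both were high in the Aire+/+ isotype library and near absent from the other 3. The median of the erythroid and platelet genes was -6.09 and 1.21. Red blood cell RNA in the Aire+/+ isotype library is therefore a property of that library in these data, and why it differed was not tested.

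Mitochondrial transcripts also changed direction with treatment. The median log2 ratio of the mitochondrial genes was 0.33 under isotype and -0.37 under anti-PD1, and mt-TrnG, a mitochondrial transfer RNA, had 1.32 and -1.85. The difference between the libraries was not tested.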

How the results depend on the processing

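The main setting had 136 genes higher and 25 lower in both pairs. With a minimum of 50 UMIs the counts were 297 and 86, with 100 UMIs 214 and 45, and with 1000 UMIs 36 and 7. At 1.2-fold they were 459 and 210, and at 2-fold 65 and 5. After thinning to 1500 UMIs they were 42 and 8. Cells without a Ccl5 UMI gave 32 and 34, and cells with one 130 and 9. Without cells holding a Mki67 or Top2a UMI, an alternative added after the data were seen, 68 genes were higher and 20 lower. The other scalings, gates and the study filter gave between 121 and 136 higher genes and between 21 and 31 lower ones. Leaving out hemoglobin genes, also added after the data were seen, gave 136 and 25.

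Some directions turned, here first among the lists and the genes named by the rule. Without the cells holding a Mki67 or Top2a UMI the isotype values were -0.03 for the median of the cell-cycle genes, -0.27 for Ube2c and -0.27 for 2810417H13Rik. Under anti-PD1 Ube2c was at 1.79 and 2810417H13Rik at 2.01 without those cells. With all barcodes the isotype median of B cell markers was 0.06 and the anti-PD1 median of erythroid and platelet markers -2.41, and under isotype Anxa1 was at -0.31, Havcr2 at -0.77 and Itgax at -0.17. In cells with a Ccl5 UMI the isotype median of B cell markers was 0.42, Ckb was at 0.13 under anti-PD1, Scg5 at 0.06 under isotype, and H2-Ab1 at 0.06 under isotype and 4.33 under anti-PD1. H2-Ab1 under anti-PD1 was at 0.28 as a mean over cells and 0.39 after thinning.

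In cells without a Ccl5 UMI the values of those genes that turned under anti-PD1 were Gzma -0.43, Hist1h1b -0.11, Ube2c -0.65, Nr4a2 0.43, Lgals1 -0.10, Gzmb -1.23, Klrc1 -0.58, Klrk1 -0.61, Havcr2 -1.46, Bhlhe40 -0.91, Itgax -1.0 and Birc5 -0.10. Those that turned under isotype were Anxa1 -1.01, Gzmb -1.06, Tigit -1.67, Havcr2 -2.07 and Itgax -1.89. Among called genes named after their values were seen, Cx3cr1 turned to -3.03 and -1.65 and Lgals3 to -0.67 and -0.50 in these cells under isotype and anti-PD1, and Ifitm1 to -1.49, Ifitm2 to -0.60 and Ifitm3 to -0.80 under anti-PD1. In cells with a Ccl5 UMI, Sfmbt2 was at 0.69 and Plbd1 at least at 0.64 under anti-PD1. Several of these values rest on few UMIs, with intervals that include 0. The cause was not tested.

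Of the list medians over all settings 669 stayed near the main value, 159 moved and 4 turned, and of the values of named genes 1395, 395 and 28 did. A turn was counted only for list medians past 1.5-fold in the main setting and for called genes. Of the shares of cells 44 stayed and 136 moved, and turning was not scored for them.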

Other observations

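Gzmk was detected in 35.3 and 61.0% of the Gzma-positive splenic CD8 cells of Aire+/+ and Aire-/- under isotype, and in 26.4 and 58.2% under anti-PD1. Klrg1 was found in 27.9 and 57.5% of them under isotype and in 29.2 and 28.2% under anti-PD1. These shares were not thinned and have no background beside them, so no difference in what the Gzma cells hold is read from them.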
